A study of Mus musculus with 8 samples.

Results

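WDR5 is a small propeller-shaped adaptor protein found in the MLL and SET1 complexes, enzymes that methylate histone H3 on lysine 4 at active promoters. In embryonic stem cells (ESCs) it has been tied to self-renewal. The data described here are the expression arrays of mouse V6.5 ESCs kept on human wild-type WDR5 (WT) and of the same cells after that protein was withdrawn. The members were chosen by the sample labels: the 2 arrays of WT cells grown without doxycycline (WT -dox) and the 2 arrays of WT cells grown with 2 µg/mL doxycycline (WT +dox), 4 of the 8 arrays in the series. The remaining 4 arrays came from cells that carried the transgene with the F266A substitution, 2 with doxycycline and 2 without. All groups shared a lentiviral construct that constitutively expressed an shRNA against the endogenous Wdr5 mRNA, drove the human transgene from a doxycycline-inducible promoter, and marked cells with GFP, by which they were sorted. Every group therefore carried the shRNA, and the sources describe 1 sorted population per transgene. The duplicates are described as biological, so the spread between them is that within one such population. WT -dox and WT +dox differ in the drug itself as well as in the transgene, and no array of cells that saw the drug without an inducible transgene was analysed here, so the effects of the drug and of the transgene cannot be told apart. In bulk samples, fewer cells of a type and less RNA per cell cannot be told apart either.

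Array values were log2 RMA values, and a gene's difference is WT -dox minus WT +dox, with the standard error (SE) of a limma fit over all 8 arrays (n = 2 arrays per group). The number of arrays limits the precision: the median SE was 0.0802 and the median SD between duplicates, over genes and all groups, 0.0581. Over all 45101 probe sets, duplicates correlated at 0.9976 and 0.9977, and arrays of different WT groups at 0.9932 to 0.9936. The mean of the 18S ribosomal RNA control probe sets was 11.65 and 11.33 in WT +dox and 11.42 and 11.04 in WT -dox, with overlap. This control was lower in every F266A array than in any WT array. With doxycycline the F266A duplicates had means of 10.90 and 10.68, whereas those without it had 9.93 and 9.95, with no overlap. The part of this control in the F266A differences, or in the difference between the lines, was not tested. For Tfrc, a control for RNA integrity, the 3' probe set exceeded the 5' one by 2.86 and 2.69 in WT +dox and 3.11 and 3.22 in WT -dox, without overlap, and its part in the results was not tested. The same excess overlapped between the WT groups for the other such controls. In WT +dox and then WT -dox it was 0.11 and 0.13, and 0.10 and 0.12, for Gapdh. For Actb it was 0.69 and 0.73, and 0.70 and 0.74, and for Pcx 0.61 and 0.51, and 0.56 and 0.61. A gene entered the test if a probe set exceeded 50 (5.64 on the log2 scale) in at least 1 of the 8 arrays.

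The endogenous gene targeted by the shRNA, Wdr5, read 8.35 and 8.32 in WT +dox and 9.45 and 9.35 in WT -dox. It was thus 1.06 ± 0.07 higher after withdrawal (2.09-fold, adjusted p = 1.47e-05), in 2 of 2 probe sets. The files do not show whether these mouse probe sets also detect the human transgene mRNA, so the value is no check on the withdrawal. Of the other core subunits of the methyltransferase complexes, Rbbp5 (-0.02 ± 0.06, adjusted p = 0.875), Ash2l (0.01 ± 0.08, adjusted p = 0.952) and Dpy30 (0.09 ± 0.07, adjusted p = 0.346) were not called.

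Withdrawal shifted many genes by small amounts. At an adjusted p under 0.05, 3763 of 11940 genes were called (31.5%), 1925 of them higher (16.1%) and 1838 lower (15.4%). Most of these calls were small: 2670 (71%) were under 0.5 on the log2 scale, and the median size over all calls was 0.382. At least a 2-fold change was reached by 162 called genes (1.36%), 88 higher and 74 lower. The median difference over all tested genes was 0.004, with quartiles of -0.149 and 0.156, and the medians of single chromosomes lay between -0.014 and 0.042. All 162 genes with a 2-fold change kept their call and direction when any 1 of the 4 WT arrays was left out, whereas 1831 of all 3763 calls (48.7%) did. Among the 162, a group mean under the expression minimum was found for 43, so those differences include a level near background.

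The genes that rose most included regulators of growth, of the response to low oxygen and of early development. Spink1, which encodes a secreted trypsin inhibitor, read 6.50 and 6.72 in WT +dox and 9.05 and 9.20 in WT -dox (2.52 ± 0.10, 5.73-fold, adjusted p = 1.11e-06). Myc, the growth regulator, read 5.84 and 6.09 in WT +dox and 8.47 and 8.41 in WT -dox (2.47 ± 0.10, 5.56-fold, adjusted p = 1.89e-06). The D-type cyclin gene Ccnd2 read 5.27 and 5.28 in WT +dox, under the minimum, and 7.40 and 7.45 in WT -dox (2.14 ± 0.08, adjusted p = 1.11e-06), with 5 of 5 probe sets in the same direction. For each of these the arrays of the groups lay far apart relative to the duplicates. Pim2, a serine/threonine kinase gene (2.09 ± 0.10), Crmp1, whose product acts in neurite guidance (2.03 ± 0.10), and Id3, an inhibitor of basic helix-loop-helix transcription factors (1.88 ± 0.07), rose about as much. Secreted signals were also among the highest, with the peptide hormone precursor gene Trh at 1.96 ± 0.11 and the growth factor gene Fgf5 at 1.89 ± 0.23. Fgf5 read 4.06 and 3.88 in WT +dox and 5.49 and 6.24 in WT -dox, so its WT +dox mean was under the minimum. The homeobox gene Gbx2 (1.91 ± 0.10), the lysophosphatidic acid receptor gene Lpar4 (1.97 ± 0.15), Enox1 (2.10 ± 0.17) and Fndc3c1 (1.81 ± 0.15) complete the 15 with Bnip3, Egln3 and Ankrd37, which are described below. Lpar4 and Enox1 were under the minimum in WT +dox.

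Among the deepest falls were genes of the stress response and of secretion. Nupr1, a stress-induced chromatin protein gene, read 10.91 and 10.79 in WT +dox and 8.58 and 8.48 in WT -dox (-2.32 ± 0.07, 5-fold lower, adjusted p = 7.59e-07). Jdp2, which encodes a repressor that dimerises with AP-1 factors, read 9.30 and 9.39 in WT +dox and 7.36 and 7.56 in WT -dox (-1.89 ± 0.08, adjusted p = 1.89e-06). B4galnt2, a glycosyltransferase gene, read 7.77 and 7.53 in WT +dox and 5.84 and 5.63 in WT -dox (-1.92 ± 0.13, adjusted p = 1.88e-05). Genes of peptide and protein handling fell beside them, with the carboxypeptidase gene Cpe at -1.68 ± 0.09, the glutaminyl cyclase gene Qpct at -1.68 ± 0.09, the KDEL receptor gene Kdelr3 at -1.63 ± 0.08 and the transglutaminase gene Tgm2 at -1.59 ± 0.07 (5 of 5 probe sets). The remainder were 2410003I16Rik (-2.14 ± 0.14), the fibrinogen chain gene Fgg (-1.65 ± 0.10), the calretinin gene Calb2 (-1.57 ± 0.10), the class I antigen-presentation gene H2-Q2 (-1.57 ± 0.12), the mitochondrial acetyl-CoA synthetase gene Acss1 (-1.52 ± 0.10), Adssl1 (-1.51 ± 0.07), the aquaporin gene Aqp3 (-1.50 ± 0.09) and the kinase inhibitor gene Camk2n1 (-1.46 ± 0.12). The WT -dox means of 2410003I16Rik, Qpct, Fgg and H2-Q2 were under the minimum, and H2-Q2 belongs to a family of near-identical genes whose signals an array may not separate.

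**Figure D1:**
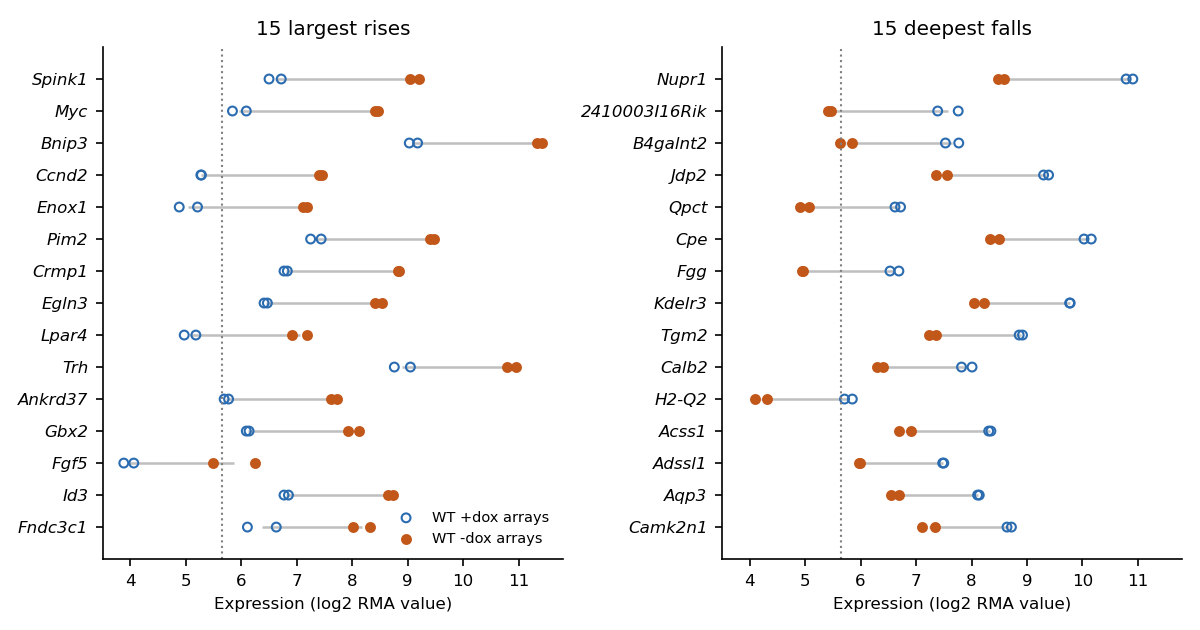
Log2 RMA value of the 15 genes with the largest rises (left) and the 15 with the deepest falls (right) on withdrawal, in each WT +dox array (open circles) and each WT -dox array (filled circles), with a grey line between the group means and a dotted line at the expression minimum of 5.64. No gene shown has overlapping groups, as the rule for naming required. The groups also did not overlap for 8064 of 11940 genes (67.5%), among them all 3763 called. Nupr1 goes from a mean of 10.85 to 8.53.

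Gene groups were read against these shares of all genes. In each list below, the number of members called higher or lower stands beside 16.1% higher and 15.4% lower over all genes tested, and the median difference beside 0.004. Calls depend on the number of arrays, and many of the smaller ones ended when 1 of the 4 WT arrays was left out. Genes outside the naming rule (Atf4, Hif1a, Hk1, Hk2, the kinases of the stress response, the fibroblast and neural markers and those that complete a count of 5 or fewer) were chosen after their values were seen.

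**Figure D2:**
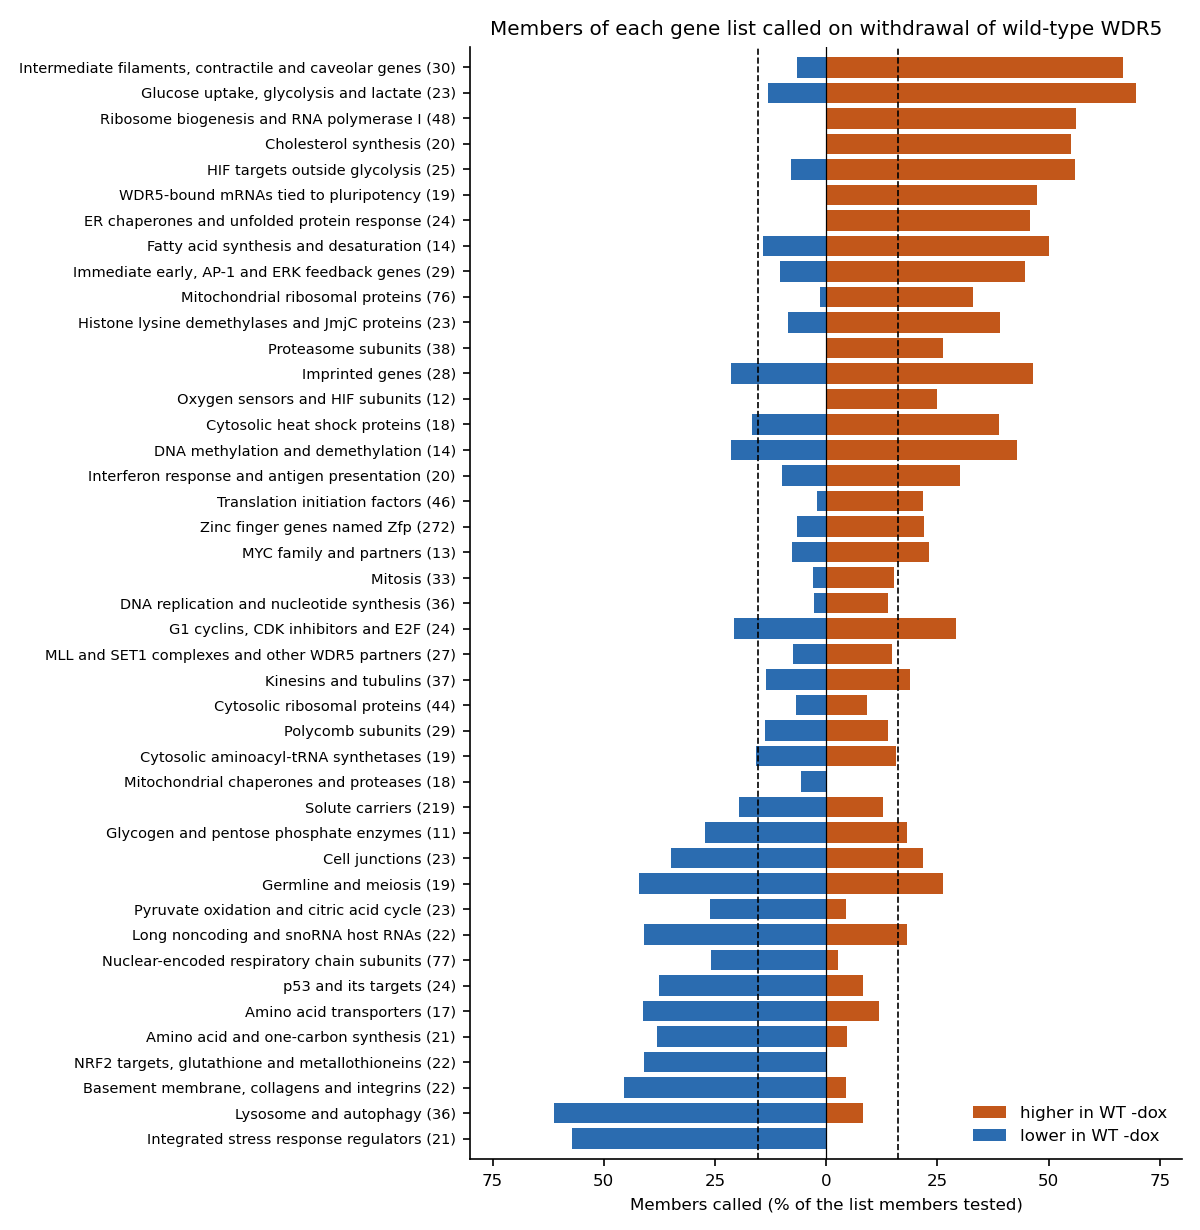
Share of the tested members of each of 43 gene lists (number tested in brackets) that were called higher (right, orange) or lower (left, blue) in WT -dox than in WT +dox, with dashed lines at the shares over all 11940 genes, 16.1% higher and 15.4% lower. Glycolysis and intermediate filament genes reach 69.6% and 66.7% higher, and lysosome and stress response genes 61.1% and 57.1% lower.

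Cells sense oxygen through prolyl hydroxylases of the EGLN family, which mark the alpha subunits of the hypoxia-inducible factor (HIF) for destruction while oxygen is present. When HIF accumulates it binds short DNA elements near genes of glucose uptake, glycolysis, mitophagy and collagen maturation, and it also induces EGLN genes themselves. The promoters of the 3 HIF targets that rose most are shown because these genes carried the largest rises of the group. They are the 250 bases before the RefSeq start (GRCm38.p6), at chr7:138909507-138909756 for Bnip3, chr12:54203875-54204124 for Egln3 and chr8:45999851-46000100 for Ankrd37, all on the minus strand and written 5′ to 3′, with matches to the hypoxia response core (ACGTG or GCGTG, on either strand) in capitals. ACGTG also lies within the E-box CACGTG.
Bnip3: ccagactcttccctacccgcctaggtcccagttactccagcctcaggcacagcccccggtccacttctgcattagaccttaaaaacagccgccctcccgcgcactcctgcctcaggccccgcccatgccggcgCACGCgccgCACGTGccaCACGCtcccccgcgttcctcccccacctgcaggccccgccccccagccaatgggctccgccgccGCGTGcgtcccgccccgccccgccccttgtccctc
Egln3: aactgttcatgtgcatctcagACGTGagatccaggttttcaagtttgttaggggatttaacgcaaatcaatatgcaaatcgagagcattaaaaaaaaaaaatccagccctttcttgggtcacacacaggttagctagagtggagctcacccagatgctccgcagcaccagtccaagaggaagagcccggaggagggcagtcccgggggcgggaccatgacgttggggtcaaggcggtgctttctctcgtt
Ankrd37: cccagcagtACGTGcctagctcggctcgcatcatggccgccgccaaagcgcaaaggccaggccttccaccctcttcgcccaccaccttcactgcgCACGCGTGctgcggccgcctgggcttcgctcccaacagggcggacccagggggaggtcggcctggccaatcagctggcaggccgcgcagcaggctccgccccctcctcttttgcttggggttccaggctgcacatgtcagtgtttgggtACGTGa

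The core was matched 5 times in the Bnip3 stretch, 1 time in that of Egln3 and 4 times in that of Ankrd37, counting both strands. Over the whole windows of 300 bases it was present in 21 of the 22 HIF targets outside glycolysis that had a window (95.5%) and in 6520 of 9640 tested genes with one (67.6%). In all 27025 genes with a window the share was 46.7%. It was present in 12 of 12 members called higher and in 2 of 2 called lower that had a window. Since the list was built from known HIF targets, the share describes the list and not the change. A match is a description of the letters and shows no binding.

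HIF targets outside glycolysis rose. Of 25 tested, 14 rose and 2 fell, with a median of 0.28; leaving out WT +dox replicate 2 left 9 higher, and any other WT array 10. Bnip3, a mitophagy receptor gene, read 9.03 and 9.18 in WT +dox and 11.42 and 11.33 in WT -dox (2.27 ± 0.10, 4.82-fold, adjusted p = 1.89e-06). Egln3 itself read 6.41 and 6.47 in WT +dox and 8.42 and 8.53 in WT -dox (2.03 ± 0.07, 4.09-fold, adjusted p = 8.24e-07). Ankrd37, an ankyrin repeat gene, read 5.77 and 5.69 in WT +dox and 7.73 and 7.62 in WT -dox (1.95 ± 0.08, 3.86-fold, adjusted p = 2.11e-06). After these 3 the sizes dropped to 0.98 ± 0.07 for Ndrg1 and 0.92 ± 0.07 for Fam162a. The 4 probe sets of Ndrg1 ranged from 0.00 to 1.78. The 2 that fell were the angiogenic growth factor gene Vegfa (-0.29, adjusted p = 0.0113) and Wsb1 (-0.49, adjusted p = 0.0011), and the call of Vegfa ended without WT +dox replicate 2 or WT -dox replicate 1. Of the 12 oxygen sensors and HIF subunits, 3 rose and 0 fell by limma (1 at an unadjusted p under 0.05 and 1 by a SAM-type statistic): Egln3, Egln1 (0.89 ± 0.07) and Epas1 (0.66 ± 0.11), which encodes a HIF alpha subunit. The 2 probe sets of Epas1 differed, at 0.19 and 1.12. The mRNA of the other main alpha subunit, Hif1a, had a difference of -0.02 (adjusted p = 0.833).

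Glycolytic genes moved the same way. Of 23 genes of glucose uptake, glycolysis and lactate, 16 rose and 3 fell, with a median of 0.41. The glucose transporter gene Slc2a1 read 10.53 and 10.44 in WT +dox and 11.86 and 11.79 in WT -dox (1.34 ± 0.09, 2.53-fold, adjusted p = 1.5e-05). Slc16a3, which encodes a lactate exporter, read 5.13 and 4.98 in WT +dox, under the minimum, and 6.55 and 6.52 in WT -dox (1.48 ± 0.08, adjusted p = 5.44e-06). The muscle-type lactate dehydrogenase gene Ldha read 12.14 and 11.97 in WT +dox and 12.98 and 12.95 in WT -dox (0.91 ± 0.08, 1.88-fold, adjusted p = 6.92e-05). Its heart-type partner Ldhb moved the other way. It read 12.43 and 12.46 in WT +dox and 11.43 and 11.38 in WT -dox (-1.04 ± 0.10, 2.06-fold lower, adjusted p = 0.000104), in 4 of 4 probe sets. Aldoc, an aldolase gene, rose by 1.00 ± 0.08. The hexokinase genes also split, Hk2 at 0.62 (adjusted p = 0.000828) and Hk1 at -0.86 (adjusted p = 0.000107), and the third member lower was Pfkfb2 (-0.31, adjusted p = 0.0242).

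**Figure D3:**
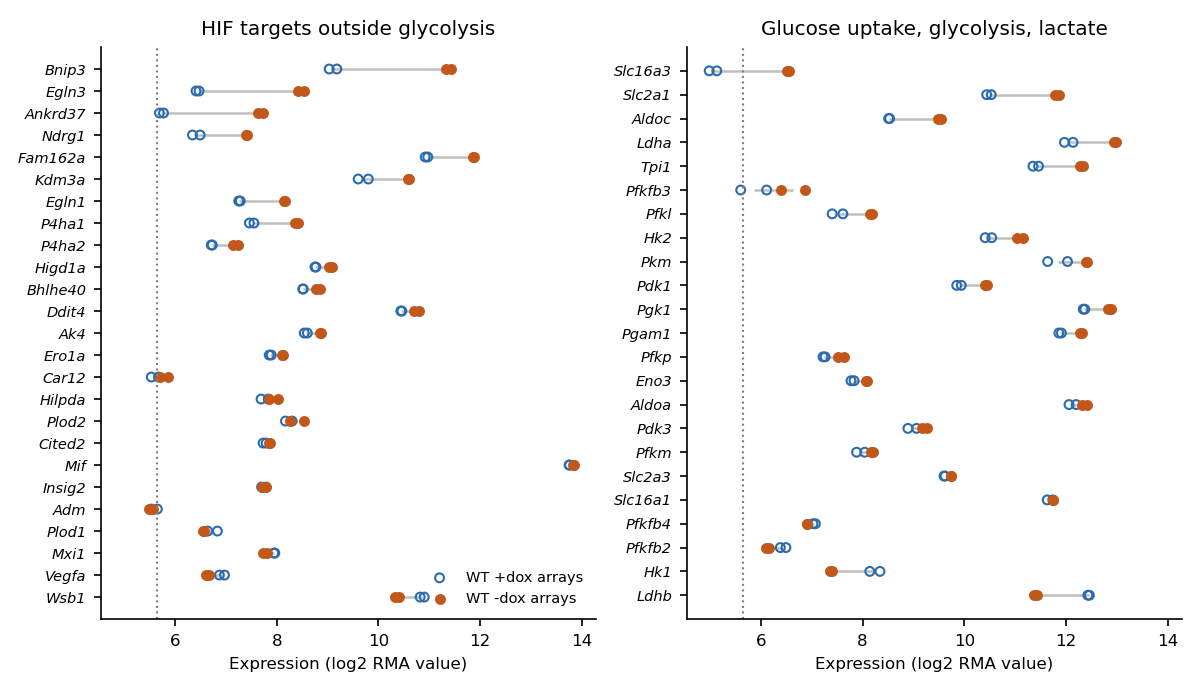
Log2 RMA value of every tested member of the lists of HIF targets outside glycolysis (left, 25 genes) and of glucose uptake, glycolysis and lactate genes (right, 23 genes) in each WT +dox array (open circles) and each WT -dox array (filled circles), ordered by difference, with a grey line between the group means and a dotted line at the expression minimum. Bnip3, Egln3 and Ankrd37 lead the left panel and Slc16a3 and Slc2a1 the right, while Ldhb and Hk1 lie at the other end.

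Genes of mitochondrial oxidation shifted slightly down. Of 77 nuclear-encoded respiratory chain subunits, 2 were higher and 20 lower (26%), with a median of -0.11. The count lower was 9 to 13 when any 1 WT array was left out, and the 2 higher calls, Ndufv3 (0.26, adjusted p = 0.0204) and Uqcrh (0.21, adjusted p = 0.0397), ended in each of these cases. Cox6b2, the testis-type form of a cytochrome oxidase subunit, read 11.30 and 11.08 in WT +dox and 10.14 and 10.17 in WT -dox (-1.03 ± 0.11, adjusted p = 0.000157). The other named members, Ndufa6 (-0.42 ± 0.07), Ndufb5 (-0.37 ± 0.06), Sdhb (-0.36 ± 0.06) and Cox7a2l (-0.36 ± 0.06), were closer to the list as a whole. Of 23 genes of pyruvate oxidation and the citric acid cycle, 1 rose (Acly, 0.27 ± 0.07, a call that ended without any 1 WT array) and 6 fell, 2 or 3 without any 1 WT array. Idh2, the mitochondrial NADP-dependent isocitrate dehydrogenase gene, read 9.004 and 8.79 in WT +dox and 8.17 in both WT -dox arrays (-0.73 ± 0.08, adjusted p = 0.000285). Mitochondrial ribosomal protein genes went the opposite way to the respiratory chain: of 76, 25 rose (14 and 15 when WT -dox replicates 2 and 1 were left out, and 16 for WT +dox replicate 2) and 1 fell, Mrpl23 (-0.23, adjusted p = 0.0461), with a median of 0.10 and Mrpl20 (0.66 ± 0.06) highest. The call of Mrpl23 ended without any 1 WT array other than WT +dox replicate 2.

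The integrated stress response is the arm of stress signalling in which kinases slow translation initiation while the transcription factor ATF4 is made, and ATF4 with its partners then induces amino acid synthesis and transport genes. ATF4 binds composite elements that hold the letters TGATGNAA. The stretches before the RefSeq starts of Nupr1 (chr7:126625471-126625720, minus strand) and Chac1 (chr2:119350992-119351241, plus strand; GRCm38.p6) are shown because each held 1 match, given in capitals, and both genes are among the deepest falls of the list.
Nupr1: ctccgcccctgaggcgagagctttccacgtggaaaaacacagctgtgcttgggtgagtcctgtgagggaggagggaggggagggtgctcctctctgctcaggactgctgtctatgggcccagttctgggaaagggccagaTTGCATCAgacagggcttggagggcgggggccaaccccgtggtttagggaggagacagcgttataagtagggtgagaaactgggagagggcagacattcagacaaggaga
Chac1: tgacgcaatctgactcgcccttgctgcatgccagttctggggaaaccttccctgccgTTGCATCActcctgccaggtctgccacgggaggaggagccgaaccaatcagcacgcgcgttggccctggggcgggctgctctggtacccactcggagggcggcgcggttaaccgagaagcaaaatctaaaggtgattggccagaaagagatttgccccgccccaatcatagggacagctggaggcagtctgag

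The element was found in 7 of the 19 regulators with a window (36.8%), in 6 of the 12 that fell (50%), and in 256 of 9640 tested genes with a window (2.66%). Since the list was built largely from known ATF4 targets, the share describes the list and not the change.

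Regulators of this response fell. Of 21 tested, 12 fell and 0 rose by limma (0 at an unadjusted p under 0.05 and 0 by the SAM-type statistic), with a median of -0.34; leaving out WT -dox replicate 2 brought the falls to 7, and WT +dox replicate 2 to 8. After Nupr1 and Jdp2, Ddit3, which encodes a pro-apoptotic transcription factor, read 8.93 and 8.78 in WT +dox and 7.998 and 7.94 in WT -dox (-0.88 ± 0.08, 1.85-fold lower, adjusted p = 0.000106). Chac1, a glutathione-degrading enzyme gene, read 9.49 and 9.45 in WT +dox and 8.66 and 8.59 in WT -dox (-0.85 ± 0.09, adjusted p = 0.000184). Trib3, a pseudokinase gene, read 9.46 and 9.56 in WT +dox and 8.79 and 8.76 in WT -dox (-0.74 ± 0.09, adjusted p = 0.000481). Atf4 itself was lower by a smaller amount (-0.34, adjusted p = 0.00968). The mRNAs of the kinases that start the response, Eif2ak1 to Eif2ak4, were not called, and lay between -0.35 and 0.15.

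**Figure D4:**
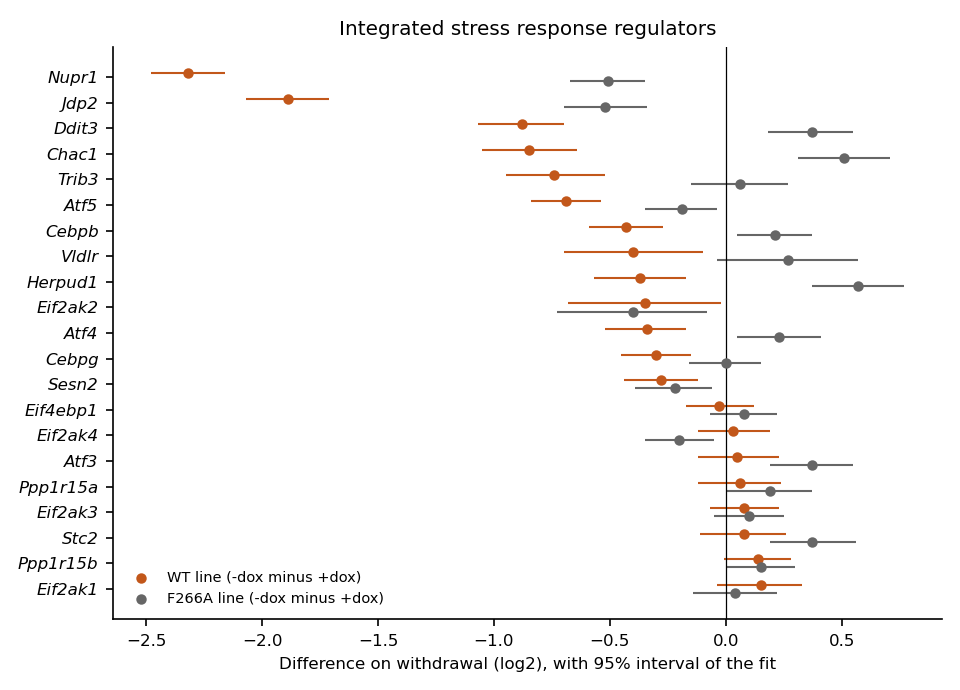
Difference on withdrawal (log2) of the 21 regulators of the integrated stress response, with the 95% interval of the limma fit, in the WT line (orange) and in the F266A line (grey), 2 arrays per group. In the WT line 12 fell, from Nupr1 at -2.32 to Sesn2 at -0.28, whereas Ddit3, Chac1 and Herpud1 lie above 0 in the F266A line.

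Amino acid genes followed the regulators in part. Of 21 genes of amino acid and one-carbon synthesis, 8 fell and 1 rose, the glutamine synthetase gene Glul (0.47 ± 0.07), although the median was only -0.06. Without WT +dox replicate 1 the count higher was 2. Gpt2, which makes alanine from pyruvate, read 9.24 and 9.28 in WT +dox and 8.37 and 8.36 in WT -dox (-0.90 ± 0.08, adjusted p = 5.78e-05). The mitochondrial folate enzyme gene Mthfd2 (-0.54 ± 0.09), the asparagine synthetase gene Asns (-0.52 ± 0.06) and the proline synthesis gene Aldh18a1 (-0.49 ± 0.06) fell by less. Of 17 amino acid transporter genes 7 fell (4 without WT +dox replicate 2 or WT -dox replicate 2), among them Slc7a1 (-0.65 ± 0.08), Slc1a4 (-0.51 ± 0.07) and Slc38a4 (-0.47 ± 0.09). The 2 that rose, Slc7a7 (1.01 ± 0.08) and Slc7a3 (0.66 ± 0.07), carry cationic amino acids, as does Slc7a1. Of 19 cytosolic tRNA synthetase genes 3 were higher, Hars (0.34), Rars (0.27) and Farsb (0.26), and 3 lower, Nars (-0.29), Cars (-0.25) and Iars (-0.24). Leaving out any 1 WT array changed these counts to 0 to 2 higher and 0 or 1 lower. The arm of stress signalling that serves the endoplasmic reticulum moved in the other direction: of 24 genes 11 rose (4 to 6 without any 1 WT array) and 0 fell by limma (also 0 at an unadjusted p under 0.05 and by the SAM-type statistic), with a median of 0.19. They included the secreted factor gene Manf (0.61 ± 0.06), the ubiquitin ligase gene Syvn1 (0.46 ± 0.07) and the chaperone gene Hspa5 (0.30 ± 0.06). The counts hold for the 24 listed genes only. Herpud1 (-0.37), listed with the integrated stress response regulators, and the KDEL receptor gene Kdelr3 (-1.63) stood outside this list and fell.

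Growth genes rose beside Myc. MYC is known to drive the making of ribosomes, and its part in these rises was not tested. Of 48 genes of ribosome biogenesis and RNA polymerase I, 27 rose (56.2%) and 0 fell by limma (also 0 at an unadjusted p under 0.05 and by the SAM-type statistic), with a median of 0.29. Leaving out WT -dox replicate 1 brought this to 17, and leaving out any other WT array to 20 to 22. The nucleolar helicase gene Ddx21 read 9.45 and 9.53 in WT +dox and 10.24 and 10.26 in WT -dox (0.76 ± 0.07, 1.69-fold, adjusted p = 0.000116). Pes1 (0.65 ± 0.08), Polr1e (0.64 ± 0.07), Noc3l (0.62 ± 0.10) and Grwd1 (0.57 ± 0.07) followed. In F266A, where Myc rose by 1.13, 10 of the 48 were higher (20.8%, beside 8.94% of all genes), with a median of 0.11. The ribosomal proteins themselves had a median of -0.02: of 44, 4 were higher, Rpl39l (0.35), Rpl7l1 (0.35), Rps25 (0.31) and Rps6 (0.23), and 3 lower, Rpl22l1 (-0.42), Rpl37 (-0.37) and Rpl22 (-0.27). The counts were 2 or 3 in each direction without any 1 WT array. Of 13 MYC family genes Myc, Mycn (0.42 ± 0.06) and Mlx (0.31 ± 0.08) rose and Mxd3 (-0.23 ± 0.07) fell. The 3 probe sets of Mycn ranged from 0.01 to 0.64. The calls of Mlx and Mxd3 each ended without at least 3 of the WT arrays. Of 38 proteasome subunits 10 rose, or 5 when WT +dox replicate 1 or WT -dox replicate 2 was left out and 6 for WT -dox replicate 1, and 0 fell by limma (1 at an unadjusted p under 0.05 and 0 by the SAM-type statistic). Psmb10, the immunoproteasome subunit gene, read 7.63 and 7.66 in WT +dox and 8.61 and 8.68 in WT -dox (1.00 ± 0.07, adjusted p = 2.58e-05).

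Cell cycle genes moved at the entry to the cycle and little beyond it. Of 24 genes of G1 cyclins, CDK inhibitors and E2F factors, 7 rose and 5 fell. Beside Ccnd2, the cyclin genes Ccnd1 (0.83 ± 0.08) and Ccne2 (0.84 ± 0.10) and the kinase gene Cdk6 (0.91 ± 0.09) rose, as did the CDK inhibitor gene Cdkn1c (1.24 ± 0.12), an imprinted gene. The 5 lower were Cdkn1a (-0.78), Rbl2 (-0.60), Cdkn1b (-0.45), Cdkn2c (-0.37) and E2f5 (-0.25), of which 3 encode CDK inhibitors and Rbl2 a pocket protein that restrains E2F factors. The count lower was 3 without WT +dox replicate 1 or WT -dox replicate 1. Among 36 genes of DNA replication 5 rose, Cdc6 (0.34), Fen1 (0.32), Mcm2 (0.31), Dut (0.30) and Rfc4 (0.22), and 1 fell, Pold1 (-0.23). Among 33 of mitosis 5 rose, Kif23 (0.36), Plk1 (0.34), Kif20a (0.30), Mad2l1 (0.24) and Birc5 (0.21), and 1 fell, Anln (-0.26). These shares are under those of all genes, and the counts higher were 3 or 4 and 1 to 3 without any 1 WT array. The call of Pold1 ended without each WT array in turn, and that of Anln without any 1 other than WT -dox replicate 2. Of 24 p53 target genes 9 fell (4 without WT -dox replicate 1) and 2 rose (1 without WT -dox replicate 2), Gadd45a (0.40 ± 0.08) and Ccng2 (0.33, adjusted p = 0.00575). Rrm2b, a ribonucleotide reductase subunit gene, read 7.92 and 7.94 in WT +dox and 6.68 and 6.85 in WT -dox (-1.16 ± 0.08, 2.24-fold lower, adjusted p = 1.88e-05). Cdkn1a read 9.89 and 9.83 in WT +dox and 9.08 and 9.09 in WT -dox (-0.78 ± 0.08, adjusted p = 0.00014), and Mdm2 was lower by a smaller amount (-0.49 ± 0.09).

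Lysosomal genes fell. Of 36 genes of lysosome and autophagy, 22 fell (61.1%) and 3 rose, with a median of -0.34. Glb1, which encodes beta-galactosidase, read 9.87 and 9.78 in WT +dox and 8.87 and 8.79 in WT -dox (-1.0 ± 0.08, 2-fold lower, adjusted p = 3.2e-05). Hexa, the hexosaminidase subunit gene, read 11.03 and 11.04 in WT +dox and 10.04 in both WT -dox arrays (-0.997 ± 0.07, adjusted p = 2.04e-05). Lamp2, a lysosomal membrane protein gene, read 9.28 and 9.44 in WT +dox and 8.52 and 8.47 in WT -dox (-0.87 ± 0.07, adjusted p = 6.14e-05), in 4 of 4 probe sets. The protease gene Ctsc (-0.84 ± 0.10) and the autophagosome gene Gabarapl1 (-0.82 ± 0.08) fell by similar amounts. The count higher was 1 or 2 without any 1 WT array, and the 3 were Tfe3 (0.45, adjusted p = 0.0019), which encodes a transcription factor of lysosomal genes, Gabarapl2 (0.39, adjusted p = 0.0115) and Wipi2 (0.20, adjusted p = 0.0461). Antioxidant genes also fell: of 22 targets of NRF2, glutathione enzymes and metallothioneins, 9 fell and 0 rose by limma (1 at an unadjusted p under 0.05 and 1 by the SAM-type statistic), with a median of -0.15. Without WT +dox replicate 1, 1 member was called higher. Nfe2l2, which encodes NRF2 itself, read 8.90 and 9.01 in WT +dox and 7.98 and 7.96 in WT -dox (-0.99 ± 0.09, 1.98-fold lower, adjusted p = 8.45e-05), followed by the metallothionein gene Mt1 (-0.70 ± 0.07) and the quinone reductase gene Nqo1 (-0.62 ± 0.11).

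Lipid synthesis genes rose. Of 20 cholesterol synthesis genes, 11 rose and 0 fell by limma (1 at an unadjusted p under 0.05 and 1 by the SAM-type statistic), with a median of 0.22. Idi1, the isopentenyl diphosphate isomerase gene, read 9.52 and 9.76 in WT +dox and 10.41 and 10.33 in WT -dox (0.73 ± 0.09, adjusted p = 0.000411). The squalene epoxidase gene Sqle (0.64 ± 0.08), Cyp51 (0.54 ± 0.09), Fdps (0.48 ± 0.07) and Dhcr7 (0.48 ± 0.07) followed, and the call of Fdps ended without an expression minimum. Of 14 genes of fatty acid synthesis and desaturation, 7 rose and 2 fell (1 without WT +dox replicate 2 or WT -dox replicate 2), Acss2 (-0.36 ± 0.07) and Elovl6 (-0.30, adjusted p = 0.0172). The desaturase gene Scd2 read 9.54 and 9.44 in WT +dox and 10.29 and 10.33 in WT -dox (0.82 ± 0.07, adjusted p = 5.38e-05).

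Chromatin genes changed unevenly. Of 27 genes of the MLL and SET1 complexes and of other WDR5 partners, 4 rose (2 without any 1 WT array other than WT +dox replicate 1) and 2 fell, shares at or under those of all genes. Setd1b, a histone H3 lysine 4 methyltransferase gene, read 7.11 and 7.45 in WT +dox and 8.48 and 8.41 in WT -dox (1.16 ± 0.11, 2.24-fold, adjusted p = 0.0001). Beside Setd1b and Wdr5, the higher calls were Men1 (0.25 ± 0.08) and Paxip1 (0.22, adjusted p = 0.0299), and the lower ones Ncoa6 (-0.29 ± 0.09) and Ogt (-0.29 ± 0.07). The calls of Men1, Ncoa6 and Ogt each ended without at least 2 of the WT arrays in turn and that of Paxip1 without each of the 4, and the count lower was 0 without WT -dox replicate 1. Of 23 histone demethylase and JmjC genes, 9 rose and 2 fell, Kdm5a (-0.32) and Kdm3b (-0.30), of which 0 were called without any 1 WT array other than WT +dox replicate 1. The hypoxia-inducible demethylase gene Kdm3a read 9.60 and 9.80 in WT +dox and 10.58 and 10.61 in WT -dox (0.90 ± 0.08, adjusted p = 8.24e-05), and Kdm2b was 0.44 ± 0.08 higher. The number higher in this list was 3 to 5 when WT +dox replicate 1 or either WT -dox array was left out. Of 14 genes of DNA methylation and demethylation, 6 rose (3 without WT +dox replicate 2) and 3 were lower, with a median of 0.11. The 3 lower were the maintenance methyltransferase gene Dnmt1 (-0.20, adjusted p = 0.0472), Uhrf2 (-0.26, adjusted p = 0.027) and the repair glycosylase gene Mbd4 (-0.26, adjusted p = 0.0202), and 0 were called lower without WT +dox replicate 2 or WT -dox replicate 1. The DNA methyltransferase genes that act de novo rose by more. Dnmt3b read 9.82 and 9.80 in WT +dox and 11.43 and 11.46 in WT -dox (1.64 ± 0.09, 3.11-fold, adjusted p = 6.15e-06). The cofactor gene Dnmt3l read 9.60 and 9.65 in WT +dox and 11.22 and 11.24 in WT -dox (1.61 ± 0.08, 3.05-fold, adjusted p = 4.17e-06), and Dnmt3a rose by 0.99 ± 0.10 in 5 of 5 probe sets. Of 29 Polycomb subunit genes 4 were higher, L3mbtl2 (0.43), Jarid2 (0.30), Cbx2 (0.28) and Eed (0.27), and 4 lower, Phc3 (-0.32), Ring1 (-0.27), Pcgf3 (-0.23) and Mtf2 (-0.21), with a median of 0.01. Without any 1 WT array the counts were 1 or 2 higher and 0 or 1 lower. Of 272 genes named Zfp, most of which encode zinc finger proteins, 60 rose (22.1%) and 18 fell (6.62%), with a median of 0.08; leaving out WT -dox replicate 2 left 28 higher, WT +dox replicate 1 left 33 and WT -dox replicate 1 left 37.

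Imprinted, germline and noncoding genes held large single changes. Of 28 imprinted genes 13 rose (4 when WT -dox replicate 2 was left out, 6 for WT +dox replicate 1 and 8 for either other) and 6 fell. After Cdkn1c, the hydrolase gene Mest read 7.93 and 7.81 in WT +dox and 9.07 and 9.02 in WT -dox (1.18 ± 0.08, 2.26-fold, adjusted p = 1.5e-05), and the noncoding RNA genes Rian (0.65 ± 0.11) and Mirg (0.64 ± 0.10) rose together. Of 19 germline genes 8 fell and 5 rose, Dnmt3l, Syce1 (0.49), Tdrd12 (0.41), Syce2 (0.35) and Rpl39l. Sycp3, a component of the meiotic chromosome axis, read 8.42 and 8.63 in WT +dox and 7.50 and 7.59 in WT -dox (-0.98 ± 0.10, adjusted p = 0.000157), and Mael (-0.80 ± 0.15), the meiotic cohesin gene Stag3 (-0.80 ± 0.08) and the RNA-binding protein gene Dazl (-0.76 ± 0.08) fell as well. Of 22 long noncoding and snoRNA host genes 9 fell (4 without WT +dox replicate 1 or WT -dox replicate 1) and 4 rose, Ftx (0.70 ± 0.14), Snhg3 (0.68 ± 0.08), Rian and Meg3 (0.34). Snhg6 (-0.52 ± 0.07) was among those lower. Malat1 read 8.48 and 8.88 in WT +dox and 7.997 and 8.08 in WT -dox (-0.64 ± 0.16, adjusted p = 0.0125), but its call ended without WT +dox replicate 2 or without WT -dox replicate 1.

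Cytoskeletal genes rose while basement membrane genes fell. Of 30 genes of intermediate filaments, the contractile apparatus and caveolae, 20 rose (66.7%) and 2 fell, with a median of 0.42. Vim, the vimentin gene, read 7.68 and 7.84 in WT +dox and 9.27 and 9.21 in WT -dox (1.48 ± 0.10, 2.79-fold, adjusted p = 2.23e-05). The neuronal filament genes Nefm (1.69 ± 0.14, under the minimum in WT +dox), Ina (1.57 ± 0.08) and Nefl (1.41 ± 0.11) and the calponin gene Cnn1 (1.199 ± 0.08, also under it) rose with it. The 2 that fell were Krt7 (-1.02, adjusted p = 0.000321) and Cnn3 (-0.41, adjusted p = 0.00122). Of 22 genes of the basement membrane, collagens and integrins, 10 fell (6 without WT +dox replicate 2 or WT -dox replicate 2) and 1 rose, Itgb1 (0.31, adjusted p = 0.00957), whose list had 0 rises without WT -dox replicate 2 and 2 when WT +dox replicate 2 was left out. Lama1, a laminin chain gene, read 9.08 and 9.22 in WT +dox and 7.94 and 8.13 in WT -dox (-1.11 ± 0.10, 2.16-fold lower, adjusted p = 9.95e-05), and Nid1, which encodes a laminin-binding protein, fell by 0.86 ± 0.07. Junction genes split, with 8 of 23 lower and 5 higher, Cdh2, Pkp2, Marveld3 (1.02), Gja1 (0.78) and Cgn (0.43). The cadherin gene Cdh2 read 4.31 and 4.17 in WT +dox, under the minimum, and 5.78 and 5.83 in WT -dox (1.56 ± 0.13, adjusted p = 5.89e-05). The desmosomal genes divided, Pkp2 rising by 1.04 ± 0.08 and Dsc2 (-1.10 ± 0.12) and Dsp (-0.95 ± 0.12) falling.

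Signalling targets were also affected. Of 29 immediate early, AP-1 and ERK feedback genes, 13 rose and 3 fell, with a median of 0.26. The ERK phosphatase gene Dusp6 read 9.34 and 9.50 in WT +dox and 10.20 and 10.44 in WT -dox (0.90 ± 0.10, 1.87-fold, adjusted p = 0.000215). Ier3 (0.99 ± 0.11), the feedback inhibitor gene Spry4 (0.86 ± 0.09) and the transcription factor gene Egr1 (0.60 ± 0.08) rose too. Beside Jdp2, the lower calls were Jund (-0.46, adjusted p = 0.00162) and Klf10 (-0.38, adjusted p = 0.00492). Of 20 interferon response and antigen presentation genes, 6 rose and 2 fell: Gbp2 rose by 1.14 ± 0.13, whereas Xaf1 fell by 1.25 ± 0.10 and B2m by 0.75 ± 0.10. Of 19 mRNAs that the study's supplement lists as WDR5-bound and tied to pluripotency, 9 rose and 0 fell by limma (also 0 at an unadjusted p under 0.05 and by the SAM-type statistic), with a median of 0.10. Myc stands in that list as well, ahead of Bmp4 (0.86 ± 0.08) and Rarg (0.62 ± 0.07).

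Cell identity was checked against marker lists. The pluripotency factor gene Pou5f1 read 12.92 and 12.87 in WT +dox and 12.89 and 13.06 in WT -dox, with overlap (0.08 ± 0.08, adjusted p = 0.509), so the defining factor of ESCs was present in both groups. Nanog (-0.37 ± 0.07) and Esrrb (-0.37 ± 0.06) were lower, and of 14 ESC markers 7 fell and 2 rose, Dppa3 (1.04) and Dppa4 (0.25), of which the call of Dppa4 ended without each WT array in turn. Of 9 primed epiblast markers, 8 rose and 0 fell by limma (also 0 at an unadjusted p under 0.05 and by the SAM-type statistic), with a median of 1.35. Of 12 fibroblast markers, 2 passed the expression minimum, Col1a2 (5.58 to 5.88 over the 4 arrays) and Twist1 (4.71 to 5.26, called higher, though not without WT +dox replicate 1 or WT -dox replicate 1), so the defining markers of fibroblasts were at or near background. Of 7 trophectoderm markers 3 fell, Krt7, Tead4 (-0.40) and Tfap2c (-0.28), and of 5 primitive endoderm markers 1 rose, Foxa2 (0.31). The call of Tfap2c ended without WT +dox replicate 2 or WT -dox replicate 2, and that of Foxa2 without WT -dox replicate 1. Of 6 neural markers 4 were higher and 1 lower, with a median of 0.29, and the count higher was 2 without WT +dox replicate 2 or WT -dox replicate 1. The neurogenic transcription factor gene Neurod1 read 6.87 and 6.996 in WT +dox and 7.91 and 8.11 in WT -dox (1.08 ± 0.10, adjusted p = 0.000112). Tubb3 (0.55), Nes (0.32) and Pax6 (0.27, under the minimum in WT +dox) were the others higher. The call of Pax6 ended without any 1 WT array other than WT +dox replicate 1. That of Nes ended without WT +dox replicate 2 or WT -dox replicate 1, and both ended without an expression minimum. Sox1 (-0.36) was lower, a call that ended without each WT array in turn, and Map2 stood at -0.16 (adjusted p = 0.451), under the minimum in both groups. These markers moved beside Nefm, Ina, Nefl and Crmp1, and their part in those rises was not tested. Of 5 mesoderm and primitive streak markers 0 were called by limma (also 0 at an unadjusted p under 0.05 and by the SAM-type statistic), with a median of 0.00.

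The F266A line gives the same removal of doxycycline on 4 other arrays, which are not in the WT group means. The WT calls still share the estimate of spread and the expression minimum with them. With the WT arrays alone, 3619 genes were called in WT. In F266A 2333 genes were called (19.5%), 1067 of them higher (8.94%) and 1266 lower (10.6%). Of these, 1395 were called in the same direction in WT, which is 37.1% of the WT calls and 59.8% of the F266A calls. Another 39 were called in opposite directions. Across genes, which are not independent replicates, the differences of the lines correlated at 0.616 (Pearson's r over 11940 genes). Of the 162 genes with a 2-fold change in WT, 155 had the same sign in F266A and 124 were called in that direction, and the median F266A difference, taken in the direction of the WT change, was 0.57 against 1.22 in WT, both on the log2 scale. The difference between the lines was called for 615 genes (5.15%), and for 100 of those 162. Of the 495 genes called both in WT and for the difference, the change was larger in WT with the same sign for 269. It was larger in F266A for 8 and of opposite sign for 218. These signs are those of the estimates, whether or not the gene was called in F266A. The 495 and the 162 were both chosen by a call in WT, which in advance favours a larger change in WT. No set chosen by its change in F266A was compared. With doxycycline the lines already differed in level for some genes. The F266A +dox mean was 8.28 for Nupr1 and 11.78 for Slc2a1, near the WT -dox means of 8.53 and 11.83. Among the 15 largest rises and 15 deepest falls, it lay nearer the WT +dox mean only for Egln3, Bnip3 and Ankrd37. Their F266A +dox means were 6.98, 9.62 and 6.63, and their WT +dox means 6.44, 9.11 and 5.73. For the other genes of these sets it lay nearer the WT -dox mean, as for Myc (7.78 against 8.44) and Pim2 (9.31 against 9.44). A smaller difference on withdrawal in F266A is thus not by itself a smaller distance from WT +dox. Genes outside these sets were not counted in this way. The lines differ in the substitution and are separate sorted populations, which cannot be told apart.

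The leading hypoxia-related genes differed in size between the lines. In F266A the difference was 0.69 for Bnip3 (adjusted p = 0.00205), which was 1.58 ± 0.14 less than in WT (adjusted p = 0.000833). It was 0.34 for Egln3 (adjusted p = 0.00907), 1.69 ± 0.10 less than in WT (adjusted p = 0.000105). Of the 25 HIF targets outside glycolysis, 9 were called for the difference. The regulators of the integrated stress response had a median of 0.10 in F266A against -0.34 in WT, and 9 of 21 were called for the difference. In F266A 5 of them were higher (23.8%) and 2 lower (9.52%), the latter Nupr1 (-0.51, adjusted p = 0.00211) and Jdp2 (-0.52, adjusted p = 0.00303), which fell in WT too. Ddit3 rose by 0.37 (adjusted p = 0.0162) and Chac1 by 0.51 (adjusted p = 0.00534) in F266A, whereas both fell in WT. Cholesterol synthesis genes (median 0.29 in F266A and 0.22 in WT) and intermediate filament genes (0.43 and 0.42) had medians within 0.1 of each other in the lines, although 7 of the 30 filament genes were called for the difference. Of the 272 Zfp genes, 11 were higher (4.04%) and 32 lower (11.8%) in F266A, with a median of -0.05, and 18 (6.62%) were called for the difference, near the 5.15% of all genes. A2m, a protease inhibitor gene, read 5.90 and 6.0 in WT +dox and 7.50 and 7.65 in WT -dox (1.62 ± 0.10), with -0.57 in F266A, which was the largest difference between the lines among genes called in both WT and the difference (2.19 ± 0.14, adjusted p = 0.000189).

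**Figure D5:**
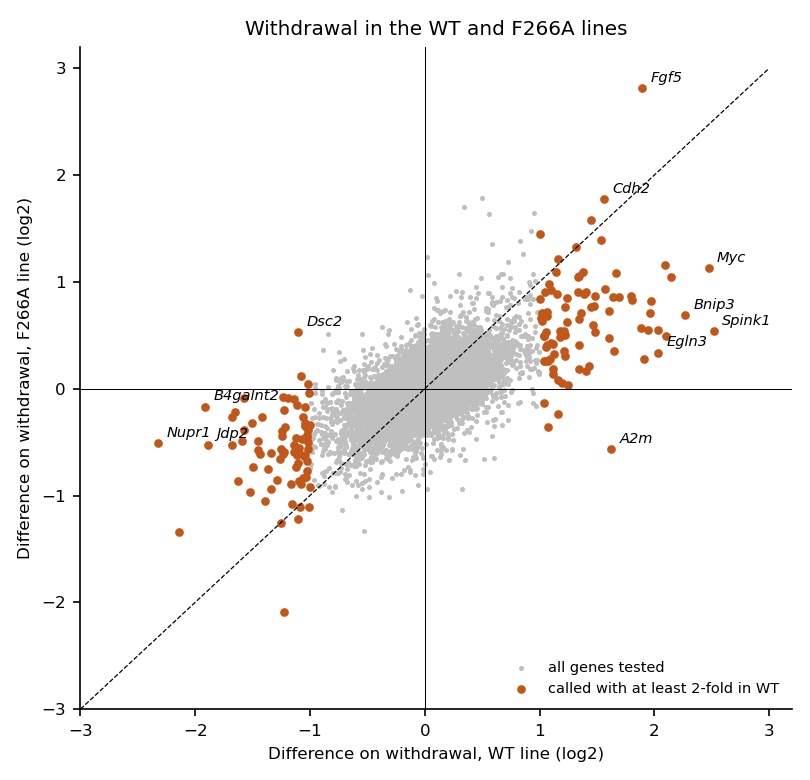
Difference on withdrawal (log2) in the WT line (horizontal) against that in the F266A line (vertical) for the 11940 genes tested (grey) and for the 162 called with at least a 2-fold change in WT (orange), with a dashed line where they are equal. Most orange points lie between the dashed line and the horizontal axis, 155 of 162 with the same sign, and A2m and Dsc2 lie across it.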

How the data were processed

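RNA from the 8 cultures was hybridised to Affymetrix mouse whole-genome expression arrays, 1 per sample. The values deposited by the authors were log2 RMA values, made with justRMA in R 2.11.1 per the labels and the study's methods, which background-corrects, quantile-normalises and summarises the probes of each probe set. These steps force a common distribution on all arrays, so a shift of total RNA would not be seen. Samples were grouped by their titles. Of 45101 probe sets, 34945 had 1 gene symbol in the platform annotation, 932 several and 9160 none, beside 64 controls, and 20046 with 1 symbol exceeded 50 (linear) in at least 1 array. They were averaged per gene.

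Group means of the 11940 genes were fitted in limma 3.58.1 (R 4.3.3) over all 8 arrays, with 4 residual and 5.32 prior degrees of freedom, and p-values were adjusted by Benjamini-Hochberg over all genes. The threshold for a call was an adjusted p of 0.05. The script was tested on simulated data. The study itself used SAM with a fold threshold, and a SAM-type statistic at a false discovery rate of 5% was an alternative. Other alternatives were the minimum, the probe set rule, quantile normalisation, median centring, WT arrays alone, a replicate block, a trended prior, array weights and leaving out each array.

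The comparison and the 43 gene lists were chosen with earlier results of these data known, so the lists carry no tests of their own. Genes named were Wdr5 and its core partners, the 15 highest and 15 lowest called genes with a 2-fold change and no overlap, up to 5 called members per list, the 6 highest and 6 lowest by the difference between the lines, and Pou5f1, Nanog, Esrrb and Fgf5. Genes named outside this rule were chosen after their values were seen. Promoter windows of 300 bases (250 before and 50 after the start) came from RefSeq on GRCm38.p6, matched by symbol for 9640 tested genes.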

Additional observations from a re-analysis of the deposited data

Results flagged for a closer look

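Withdrawal changed a number of the genes named in the report by different amounts in the WT and F266A lines, as tested by the difference of the withdrawal effects in limma (adjusted p under 0.05 over all 11940 genes). Each value below is that difference on the log2 scale, WT minus F266A, and no explanation was tested.

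Among genes that were higher after withdrawal in WT and at or above 0 in F266A, the difference was at least 1 for Spink1 (1.98), Egln3 (1.69), Gbx2 (1.63), Enox1 (1.60), Bnip3 (1.58), Crmp1 (1.48), Ankrd37 (1.40), Myc (1.35), Id3 (1.31), Trh (1.25), Lpar4 (1.15), Dnmt3l (1.13), Ccnd2 (1.10) and Setd1b (1.08). It was under 1 for Fndc3c1 (0.98), Slc16a3 (0.95), Pim2 (0.93), Slc2a1 (0.93), Dnmt3a (0.85), Nefm (0.83), Ier3 (0.83), Pkp2 (0.78), Dnmt3b (0.77), Ndrg1 (0.71), Vim (0.71), Cnn1 (0.69), Fam162a (0.66), Aldoc (0.65), Mest (0.64), Ina (0.63), Egln1 (0.62), Cdk6 (0.61), Ccnd1 (0.57), Ldha (0.57), Dppa3 (0.54), Kdm3a (0.54), Pes1 (0.45), Scd2 (0.41) and Mrpl20 (0.39). Growth and hypoxia genes stand among those of at least 1, as does the cofactor gene Dnmt3l, while Dnmt3a and Dnmt3b were under 1.

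Among genes that were lower in WT and at or below 0 in F266A, the difference reached 1 in size for Nupr1 (-1.81), B4galnt2 (-1.75), Calb2 (-1.49), Fgg (-1.44), Cpe (-1.41), Jdp2 (-1.36), Adssl1 (-1.19), H2-Q2 (-1.19), Qpct (-1.15) and Tgm2 (-1.10). It was smaller for Camk2n1 (-0.88), Gpt2 (-0.84), Aqp3 (-0.77), Kdelr3 (-0.76), Cdkn1a (-0.75), Ldhb (-0.72), Sycp3 (-0.70), Glb1 (-0.66), Slc7a1 (-0.59), Acss1 (-0.56), Hexa (-0.48), Lamp2 (-0.45) and Cnn3 (-0.39).

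For other genes the estimates in the lines had opposite signs. Those lower in WT and above 0 in F266A were Dsc2 (-1.63), Chac1 (-1.36), Ddit3 (-1.25), B2m (-1.10), Krt7 (-1.06), Mthfd2 (-1.06), Stag3 (-0.97), Dsp (-0.96), Herpud1 (-0.95), Ctsc (-0.86), Trib3 (-0.80), Rpl22l1 (-0.73), Slc38a4 (-0.72), Slc1a4 (-0.69), Atf4 (-0.57) and Aldh18a1 (-0.50). Regulators of the integrated stress response and amino acid genes stand among them. Not all of these estimates were called in F266A. The F266A difference was 0.01 for Dsp and Aldh18a1, 0.02 for Ctsc, 0.04 for Krt7 and 0.06 for Trib3. It was 0.53 for Dsc2, 0.51 for Chac1 and 0.37 for Ddit3. Those higher in WT and below 0 in F266A were A2m (2.19), Neurod1 (1.43), Egr1 (0.95), Rps25 (0.63), Kif23 (0.59) and Rpl39l (0.55). Among them, Kif23 (-0.22 in F266A) and Rpl39l (-0.20 in F266A) were not called in F266A.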

How the results depend on the processing

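The 3763 calls of the WT comparison stayed within 1.5 times under each other minimum, probe set rule, normalization, variance prior, array weighting and test tried, between 2808 without an expression minimum and 5054 with a SAM-type statistic (5507 of 20046 when each probe set was tested on its own). With at least a 2-fold change also required, 162 genes remained (88 higher, 74 lower), and 48 in F266A and 61 for the difference between the lines. Without an expression minimum 1537 genes were called in F266A and 290 for the difference, and a trended robust prior called 1110 for the difference. Leaving out 1 array gave 2359 to 3910 calls in WT (2628 and 2716 without WT +dox replicates 1 and 2, 2440 and 2359 without WT -dox replicates 1 and 2), 1083 to 2007 of them higher and 1131 to 1903 lower. It gave 1014 to 2267 calls in F266A and 174 to 688 for the difference. Where a group then held 1 array, that array was assumed to vary like the other groups. The replicate numbers share only a number: deviations of same-numbered arrays correlated at 0.129 and 0.165 in just 2 pairs. With the replicate block, 3439 genes were called in WT (1767 higher, 1672 lower), 2079 in F266A and 451 for the difference. No value of a named gene reversed its sign with a call. Of 231 genes followed, 64 changed call under at least 1 setting, and 157 of the 220 called kept it under all; Eif2ak2 was called lower with the trended prior, the SAM-type statistic or without WT +dox replicate 1. Of 817 list medians under alternatives, 33 moved by more than the median SD between duplicates of the WT groups, 0.055. The cause of these shifts was not tested.

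With 2 arrays per group, genes near background, and those with small differences, are the least certain. The arrays cannot tell the drug from the transgene.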
